A study of Mus musculus with 12 samples.

Results

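Open chromatin shared by wild-type and Runx1-deficient C2C12 myoblasts was examined at the peaks that lay inside genes. C2C12 is an established mouse myoblast line. A shared peak was kept when its centre lay in a gene of the RefSeq GRCm38 table and more than 1 kb from every gene end. This held for 10274 of the 24800 shared peaks, or 41.4% (95% Wilson interval 40.8 to 42.0%, counting error only), and these 10274 are the members of the set. The series holds 12 ATAC-seq samples in 4 groups of 3, WT and Runx1KO cells in serum-rich growth medium at day 0, and both genotypes after differentiation medium at day 2, which were not analysed here. The peak lists carry the names of replicate 1 of each genotype in growth medium, so every WT and KO value below comes from 1 library, without replicate error and without a test between genotypes. How the Runx1KO cells were made, and whether they are 1 clone or a pool, is not given in the sources used here.

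ATAC-seq uses the Tn5 transposase, which inserts sequencing adapters preferentially where DNA is not wrapped in nucleosomes, so a peak marks accessible DNA. Accessible DNA inside a gene, away from its ends, is commonly a distal enhancer of that gene or of a neighbour, or an alternative promoter that starts a shorter transcript. Runx1 is a Runt-domain transcription factor that binds TGTGGT with its partner Cbfb and acts beside ETS, AP-1 and other factors; in muscle it is expressed in proliferating myoblasts and is re-induced after injury or denervation. Each peak carries a fold enrichment (a ratio over background) and a −log10 q (larger for a more secure peak), both from the authors' files. They describe and rank peaks within a list, and the depth of the libraries is unknown.

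The few gene-body peaks that sit on an annotated internal start could be read as sequence at that start. RefSeq start windows were given for chromosomes other than 18, and 653 of the 9890 shared gene-body peaks there (6.60%) covered an internal start, one lying more than 1 kb from every gene end. The 250 bases upstream of 5 such starts are given 5′ to 3′ on the strand of the gene (RefSeq, GRCm38.p6). These windows show the letters at the peaks, and those of Lrif1 and Mylk3 run past the edge of the peak. They were chosen after their values were seen: the 2 with the ETS letters and the highest WT −log10 q, a pair from the gene lists with the RUNX letters, and the strongest start peak that was lower in KO. Capitals mark matches to the ETS letters CCGGAAG or the RUNX letters TGTGGT on either strand, and none of the letter strings searched contains another.
Aktip, chr8:91134028-91134277, minus strand: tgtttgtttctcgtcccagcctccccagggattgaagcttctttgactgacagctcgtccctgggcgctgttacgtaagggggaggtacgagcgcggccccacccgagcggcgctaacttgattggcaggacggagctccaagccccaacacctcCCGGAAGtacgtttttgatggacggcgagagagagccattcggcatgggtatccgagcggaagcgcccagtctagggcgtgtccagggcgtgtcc
Lrif1, chr3:106721432-106721681, plus strand: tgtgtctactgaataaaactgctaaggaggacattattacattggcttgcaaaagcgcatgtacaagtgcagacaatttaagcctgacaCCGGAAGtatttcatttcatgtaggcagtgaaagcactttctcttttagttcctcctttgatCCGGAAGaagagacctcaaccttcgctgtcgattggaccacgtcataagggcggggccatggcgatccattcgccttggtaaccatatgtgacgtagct
Ldb3, chr14:34588682-34588931, minus strand: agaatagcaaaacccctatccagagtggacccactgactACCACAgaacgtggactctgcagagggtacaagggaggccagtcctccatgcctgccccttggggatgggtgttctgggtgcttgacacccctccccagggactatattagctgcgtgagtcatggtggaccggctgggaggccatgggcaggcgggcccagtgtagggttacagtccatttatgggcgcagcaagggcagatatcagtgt
Ltbp1, chr17:75178531-75178780, plus strand: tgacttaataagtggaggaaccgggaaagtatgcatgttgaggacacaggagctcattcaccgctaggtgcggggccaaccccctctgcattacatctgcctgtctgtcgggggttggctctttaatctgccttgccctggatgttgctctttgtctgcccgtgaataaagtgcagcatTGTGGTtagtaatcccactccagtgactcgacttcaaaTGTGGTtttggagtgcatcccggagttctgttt
Mylk3, chr8:85381042-85381291, minus strand: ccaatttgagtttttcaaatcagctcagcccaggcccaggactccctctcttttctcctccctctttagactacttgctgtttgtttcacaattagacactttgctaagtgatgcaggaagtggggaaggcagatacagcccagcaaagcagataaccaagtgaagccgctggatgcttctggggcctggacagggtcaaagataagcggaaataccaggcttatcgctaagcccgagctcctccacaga

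The window of Aktip, which encodes a component of an endosomal vesicle-trafficking complex, held 1 ETS match, and that of Lrif1, a nuclear-receptor-interacting factor, held 2. The peak over the Aktip start had a WT fold enrichment of 23.8 and a KO value of 17.8, and the Lrif1 peak had 21.3 and 19.2. Both were among the strongest members in both libraries. Ldb3 encodes a Z-disc protein of the sarcomere, and Ltbp1 a binding protein that stores latent TGF-beta in the matrix. The Ldb3 window held 1 RUNX match under a peak of 12.3 in WT and 10.7 in KO, and the Ltbp1 window held 2 under a peak of 16.3 and 12.2. All 4 of these peaks lay within 1.5-fold of the median KO to WT ratio described below. The pair with RUNX letters does not stand for all such starts. Mad1l1, also in the gene lists, had 2 RUNX matches at an internal start. Its peak read 6.94 in WT and 9.18 in KO, more than 1.5-fold above that median ratio. Peaks over internal starts with 1 RUNX match in Arhgap29 and Ank2 lay within 1.5-fold. Mylk3, a myosin light chain kinase, had neither match in its window, and its peak read 19.8 in WT and 10.3 in KO. A match is a description of the letters and not a site of binding.

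Over all start windows of 300 bases (250 before and 50 after the start) the ETS letters differed most between accessible and other internal starts. CCGGAAG or its complement was in 17.7% of the 724 internal starts under a shared gene-body peak and in 2.70% of the 3820 internal starts under no peak of either list. The share was 22.8% at the 7852 other starts under a WT peak and 8.92% over all 32619 windows. The RUNX letters went the other way, with 13.5% under a member, 18.3% under no peak and 16.6% over all windows. The E-box CAGCTG was in 16.2% and 18.9% of internal starts with and without a peak, and TGANTCA, the AP-1 letters, in 7.04% and 7.98%. Internal starts under a member also had a higher GC content, with a median of 61.0% against 49.7% under no peak, and a CpG observed to expected ratio of 0.742 against 0.259. Among windows of 55 to 65% GC the ETS letters were in 17.5% of 309 starts under a member and 4.46% of 763 under no peak, where the CpG ratio still differed, at 0.718 and 0.353. In the same GC band the RUNX letters were in 15.5% of starts under a member, 19.1% under no peak and 15.2% over all starts. The part of CpG content in these differences was not tested.

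Peaks over internal starts were broader than the rest of the gene-body peaks. The 850 members within 1 kb of an internal start had a median width of 488 bp, against 384.5 bp for the 9040 members farther from every start and 518 bp for shared peaks near gene ends that lay by a start. Their fold enrichment was nearly that of the other members, 10.3 against 9.95 in WT and 8.95 against 8.78 in KO. Being near an internal start was also more frequent among shared peaks: 8.59% of members, 4.17% of WT specific gene-body peaks and 2.94% of KO specific gene-body peaks. Internal start peaks in genes of the fixed lists included Hdac4, a class IIa histone deacetylase that represses MEF2 (WT 17.2, KO 17.4), Lmna, which encodes lamin A/C (12.5 and 12.6), Map4, a microtubule-associated protein (15.5 and 13.4) and Rbpj, the DNA-binding factor of Notch signalling (10.2 and 8.08).

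Gene-body peaks were moderately strong and narrow compared with peaks at gene ends. The median WT fold enrichment was 9.97 (quartiles 7.70 and 12.9), beside 11.3 at the 8652 shared peaks within 1 kb of a gene end and 10.1 at the 5874 shared peaks between genes. The median width was 391 bp, beside 502 bp and 379 bp. Median −log10 q was 19.97, beside 24.3 and 19.1. In all 3 measures the gene-body peaks resembled the intergenic peaks more than those at gene ends. The 4730 WT specific peaks in gene bodies were weaker, with a median fold of 6.53, a −log10 q of 8.56 and a width of 247 bp. In the KO library the members had a median fold of 8.79, beside 9.81 at gene ends and 9.02 between genes, the same order as in WT. Gene bodies held 45.8% of the shared peaks in the lowest decile of WT −log10 q and 34.3% in the highest, while the share at gene ends went from 25.6% to 49.5%.

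**Figure D1:**
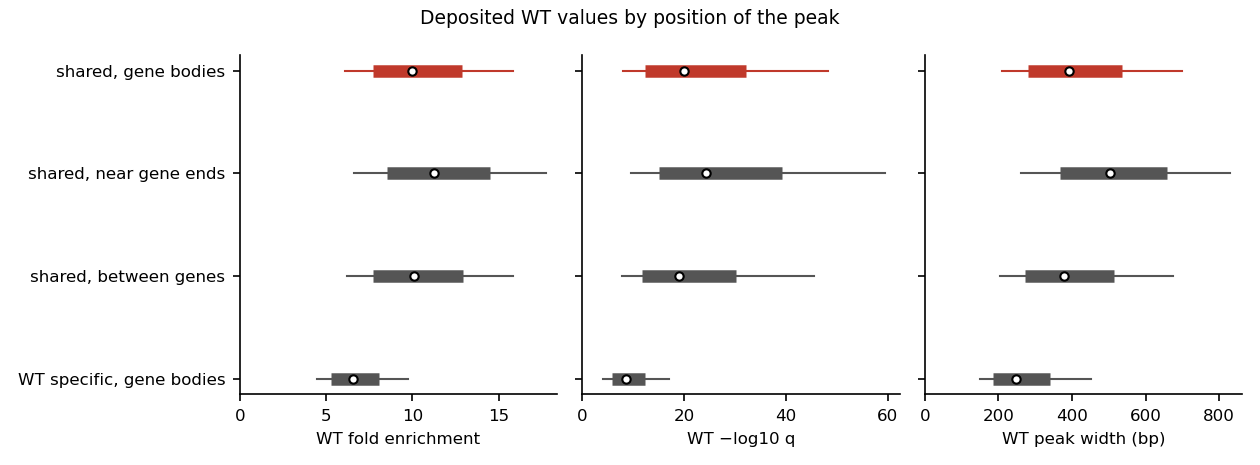
Deposited WT fold enrichment, −log10 q and width (x axes) of 4 classes of peaks (rows) in the WT replicate 1 library; thin lines run from the 10th to the 90th percentile, thick bars from the 25th to the 75th, and circles mark the median. Shared gene-body peaks, in red, have a median fold of 9.97 and a median width of 391 bp, close to the shared peaks between genes and below those near gene ends.

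The 1 kb limit cut through a continuous range. The 126 members between 1000.5 and 1098.5 bp from the nearest gene end had a median WT fold of 9.09, a KO fold of 8.07 and a width of 421.5 bp. The 141 shared peaks that also lay inside a gene but between 900.5 and 1000 bp from a gene end, just outside the set, had 9.65, 8.41 and 435 bp. Most members were much farther in, with a median of 11489 bp to the nearest gene end.

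Peaks inside genes were found again in the KO library less often than peaks at gene ends. Of the 15004 WT peaks in gene bodies, 68.5% were shared (95% Wilson interval 67.7 to 69.2%), beside 83.5% (82.8 to 84.2%) of WT peaks at gene ends and 67.1% (66.1 to 68.1%) of those between genes. In the other direction, 88.6% (88.0 to 89.2%) of the 11486 KO gene-body peaks overlapped a WT peak. These intervals hold counting error only and come from 1 library per genotype. The lists differ in length, 34118 WT and 27187 KO peaks, and the parts of depth and peak strength in these shares were not tested. Where a peak was shared, its place was close to the same. Of the members, 9983 had a single partner in each direction, 30 had 2 or more KO partners, and 261 shared a KO partner with another WT peak. Among the single-partner members the overlap of the WT and KO intervals (Jaccard index, shared over joint length) had a median of 0.779, and 69.7% of summits lay within 50 bp of each other. In 3.63% the summits were more than 200 bp apart, beside 5.75% at gene ends.

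The KO to WT ratio of the members had nearly the same median as that of all shared peaks, which include the members. The ratio was taken as log2(KO fold / WT fold) of single-partner peaks, minus its median over all 24065 such shared peaks, which was -0.20. The centred ratio of members had a median of 0.00, with the 5th percentile at -0.57 and the 95th at 0.64. A peak was called lower or higher in KO when it lay more than 1.5-fold from the centre. Of the 9983 members 472 (4.73%) were called lower, against 3.86% of all shared peaks, and 665 (6.66%) were called higher, against 5.66%. At gene ends the same rule called 2.30% lower and 3.21% higher, and between genes 4.64% and 7.49%. Calls at members were thus nearer in share to those between genes than to those at gene ends. Without the centring, 1269 members (12.7%) would be called lower, against 11.3% of all shared peaks, and 250 (2.5%) higher, against 2.2%, so the split between directions rests on the centre.

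Calls were fewest where fold enrichment was high. Of 5 equal classes of shared peaks by the mean of the WT and KO fold, the lowest had 5.97% of its members called lower and 11.2% higher, and the highest 0.997% and 1.12%. The rank correlation of WT and KO fold over the single-partner members was 0.731 (Spearman, n = 9983 peaks that share their 2 libraries), beside 0.839 at gene ends and 0.702 between genes. The WT and KO fold of the called members follow from the call itself: 11.9 and 5.98 in the median for those called lower, and 6.37 and 9.60 for those called higher.

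**Figure D2:**
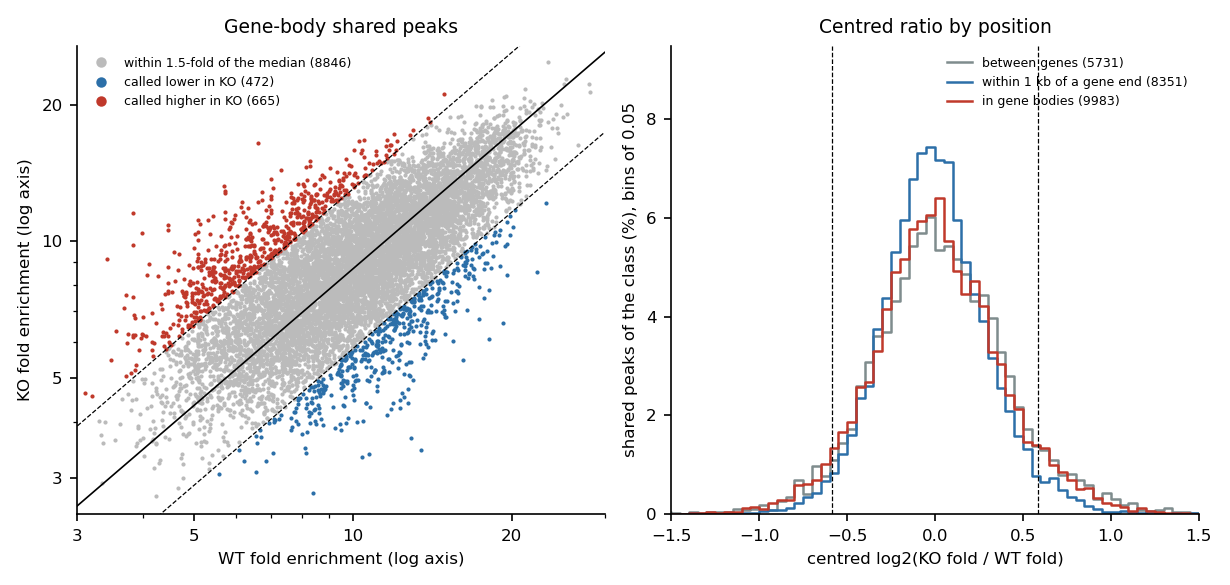
Left, WT against KO fold enrichment (log axes) of the 9983 single-partner gene-body peaks, 1 point a peak, with the median ratio of all shared peaks as a solid line and 1.5-fold either side as dashed lines. Right, the centred log2 ratio by position as the percentage of each class in bins of 0.05; gene-body and intergenic peaks spread more widely than peaks near gene ends, which have 2.30% and 3.21% beyond the dashed lines.

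The strong members were read apart from the rest. With WT and KO −log10 q both at or above the medians of the single-partner shared peaks (21.4 and 19.1), 3603 members were left, of which 44 (1.22%) were called lower and 14 (0.389%) higher. The same thresholds left 9700 of all single-partner shared peaks, with 0.814% called lower and 0.423% higher. The 2 counts depend on where the thresholds lie: at the medians of the whole lists, 16.1 in WT and 17.6 in KO, 53 of 4457 members (1.19%) were lower and 57 (1.28%) higher, against 0.833% and 1.11% of all such shared peaks. The lowest ratio of the strong set was at Dok4, a docking adaptor of receptor tyrosine kinases, where a peak of 838 bp had 17.3 in WT and 7.91 in KO (centred log2 ratio -0.93). A peak in Ddo, D-aspartate oxidase, went from 19.0 in WT to 8.83 in KO, and one in Gnb1l from 18.3 to 8.71. Sgpp2, a sphingosine-1-phosphate phosphatase, had 16.9 and 8.37, and Coro6, an actin-binding coronin, 16.5 and 8.28. Each of these KO values was close to or under the median KO fold of all members. At Nav2, a cytoskeletal navigator protein, a peak of 267 bp had 19.4 and 9.77, and 2 long noncoding RNA genes, Gm34590 and Gm31418, completed the lowest 8 with 18.4 and 9.26, and 23.3 and 12.1.

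The highest ratios of the strong set were smaller in size, a comparison that holds within that set only. Its thresholds kept 14 of the 665 members called higher and 44 of the 472 called lower. Outside the set single peaks lay farther from the centre in both directions. Examples picked after their values were seen are a Cdh13 peak at a centred log2 ratio of 1.27 and an Il18rap peak at -1.22. A peak in Fam13b had 9.71 in WT and 13.9 in KO (centred log2 ratio 0.72), and one in the noncoding Gm15270 had 14.9 and 21.1. Fyb2 had 11.7 and 16.3, Fam53b 9.28 and 12.8, and Cep170, a centrosomal protein, 13.0 and 17.5. Tiam1, an exchange factor for Rac, had 12.1 and 16.6, and Jmjd4 had 13.9 and 18.7. Among the single-partner shared peaks, the strong-set peaks named here lay between the 37.4 and 82.5 percentiles in WT and between the 82.8 and 99.9 percentiles in KO.

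The order by −log10 q was not the order by fold, although most of the first 10 by −log10 q also had a high fold. By −log10 q the order in WT began with Aktip (291 in WT and 196 in KO), Rfx1, an RFX-family transcription factor (277 and 204), Zfp827, a zinc finger protein (219.9 and 213), and Scoc (196 and 137). A peak in Gnao1, the G protein alpha subunit o, reached 184 in WT at a fold of only 9.90. Cntrob, a centriolar protein (171), Fto, an RNA demethylase (169), Cdk18 (165), Prdm6, a PR-domain regulator (163), and the noncoding Gm2694 (161) completed the first 10. Of these 10, 7 lay on chromosome 8, and so did 8 of the first 10 in KO. The stretch of chromosome 8 from 75 to 95 Mb held 200 members (1.95%), but 22 of the 100 highest by WT −log10 q and 25 of the 100 highest by KO −log10 q, against 5 of the 100 highest by WT fold. The stretch was chosen after these peaks were seen. At a like WT fold of 9 to 11, its members had a median WT −log10 q of 28.96, beside 18.7 for all others, and in KO, at a KO fold of 9 to 11, the values were 33.9 and 21.1. The difference was present in both libraries; its cause was not tested. High values in this band were not particular to chromosome 8: 5 Mb windows on chromosomes 19, 4, 17 and 15 reached WT medians of 27.9 to 29.0, each from 5 to 10 peaks in the band. By fold the order began with Rabgap1l (28.2 in WT and 21.3 in KO), Prdm6 (27.96 and 22.2), Lama2, the laminin alpha chain of muscle basement membrane (26.6 and 16.3), Tiam1 (25.5 and 19.1) and Lrrk2, a kinase with a GTPase domain (25.3 and 22.8).

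The members were spread over many genes. Protein-coding genes held 8951 of them, 1274 were in long noncoding RNA genes only and 49 in other genes only. Of 21631 protein-coding genes, 4390 had at least 1 member: 2521 had 1, 883 had 2, 596 had 3 or 4, and 390 had 5 or more and together held 2800 members. The nearest other member lay at a median of 19524.5 bp, and 3570 members had another within 10 kb. Up to 400 kb, long genes had a member more often, from 4.19% of genes of 2 to 10 kb to 66.5% of genes of 200 to 400 kb. Over these classes the number per 100 kb varied less. It was 0.792 per 100 kb of gene in the shortest of these classes and 0.943 in the longest, with 1.14 at 100 to 200 kb as the highest. Short genes lose much of their length to the 1 kb left out at each end: per 100 kb of the body that remains the same 3 values were 1.23, 0.95 and 1.15. In the 352 genes over 400 kb both were lower: 60.8% had a member, and the number was 0.381 per 100 kb of gene. Position along the gene was read for 6371 pairs of a member and a gene of at least 20 kb with known strand. The first 10% of the length had 11.4% of these pairs and the last 10% had 7.61%, beside 9.60% and 7.77% for WT specific peaks. The 1 kb left out at each gene end lowers the shares at both ends. Per Mb of gene, chromosome X had 3.42 members, chromosome 12 had 6.23 and chromosome 15 the most, 13.6.

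The 10 genes with the most members were all over 200 kb long. Pakap, which joins a paralemmin and an A-kinase anchor, had 23 in 463 kb, with WT folds of 5.85 to 18.4 and KO folds of 4.52 to 13.9. Of its 23, 18 lay below the centre and 5 above, with 1 called in each direction. Pde4d, a cAMP phosphodiesterase, had 20, of which 1 of 18 single-partner peaks was called higher. Foxp1, a forkhead repressor, had 17, and Gse1, Nav2, Dlgap2 and Tenm3, a teneurin, had 15 each. Lpp, a LIM protein of focal adhesions, and Fhod3, a formin that builds sarcomeric actin, had 14 each, and Trabd2b, a Wnt-cleaving protease, had 13. These genes did not share a direction. At Lpp 3 peaks were called higher and none lower, and at Fhod3 4 were called lower and none higher. At Nav2 3 were called lower and 1 higher, and at Tenm3 1 lower and 2 higher.

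The densest genes were shorter. Nfix, the NFI factor that sets the fetal muscle programme, had 12 members in 96.5 kb (12.4 per 100 kb), with WT folds from 4.43 to 11.8 and KO folds from 3.63 to 9.995, and none was called. Of its 13 WT gene-body peaks only 1 was WT specific. Htra1, a secreted protease, had 6 at 12.1 per 100 kb, Dusp10, a phosphatase of p38 and JNK, 5 at 12.1, and Adcy7, an adenylyl cyclase, 7 at 12.1. Plec, the plakin that links intermediate filaments to membranes, had 7, Hdac7 6, and Pmepa1, an inhibitor of TGF-beta signalling, 6. Myh9, a nonmuscle myosin heavy chain, had 8, Diaph1, a formin, 9, and Jph2, a junctophilin that ties the sarcoplasmic reticulum to the membrane, 6. No single-partner peak of Plec, Htra1, Adcy7, Hdac7, Pmepa1, Myh9 or Diaph1 was called in either direction.

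**Figure D3:**
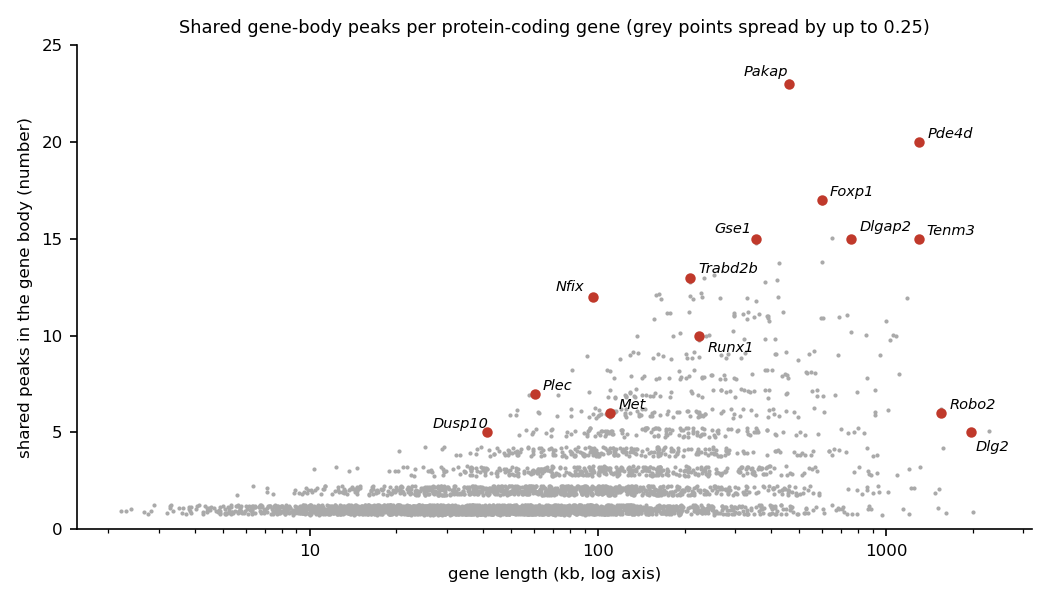
Number of shared gene-body peaks (y axis) against gene length in kb (x axis, log scale) for the 4390 protein-coding genes with at least 1, as grey points, with 14 genes named in red. Pakap stands highest with 23 peaks, Nfix is high for its length with 12 in 96.5 kb, and Robo2 and Dlg2 have only 6 and 5 at the right edge.

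Runx1 itself kept accessible DNA inside its body in the library labelled Runx1KO. Of 17 WT peaks in its body (chromosome 16, 92601466 to 92826074, GRCm38), 10 were shared and 7 were WT specific. Over all WT gene-body peaks 68.5% were shared, and the median of the genes with 10 or more such peaks was 72.7%. No KO gene-body peak lacked a WT partner. Along the chromosome the 10 WT folds were 7.96, 9.63, 11.1, 5.60, 6.80, 6.11, 10.3, 11.4, 12.9 and 4.65. The KO folds of the same peaks were 7.30, 7.22, 7.98, 7.49, 6.87, 5.42, 8.70, 9.20, 11.5 and 6.89. The fourth and the tenth, the weakest in WT, were called higher and none was called lower. The median centred ratio over the 10 was 0.03. Accessibility does not show whether a Runx1 transcript or protein is made, and where the gene was disrupted is not given in the sources used here.

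Other genes of the RUNX system had shared peaks too. Of 16 listed RUNX factors and cofactors 11 had a member, 37 members in all, with 4 called lower (10.8%) and 3 higher (8.11%), beside 4.73% and 6.66% over all members. Runx2, the bone-forming paralogue, had 11 of 18 WT gene-body peaks shared, with WT folds of 4.68 to 15.2 and KO folds of 4.40 to 12.8, and 1 peak was called higher. Cbfb, the DNA-binding partner of all RUNX proteins, had a peak of 19.58 in WT and 11.01 in KO that was called lower. Smad3, the TGF-beta effector, had 6 members, read in order as 11.5, 9.27, 10.1, 4.88, 6.99 and 17.0 in WT and as 10.5, 5.38, 4.91, 5.53, 7.29 and 9.85 in KO. The third was called lower at -0.84 and the sixth just passed the limit at -0.59, the second lay just inside it at -0.58, while the first, at 0.07, the fourth and the fifth lay above the centre. Tle3, a Groucho corepressor, had a peak of 11.1 in WT and 5.65 in KO.

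A few genes had all their members on the same side of the centre. The 372 protein-coding genes with 5 or more single-partner members were ranked after the values were seen. Of these genes, 2 had all such members below the centre and 8 had all above. How many of the 372 would do so by chance was not computed. Met, the receptor for hepatocyte growth factor on satellite cells, had WT folds of 8.47, 9.82, 10.1, 8.25, 8.94 and 8.29 and KO folds of 8.60, 14.1, 10.5, 10.8, 11.2 and 9.71. Each KO value was above its WT value, although the centre of all peaks was lower in KO, and the second and the fourth were called higher. Robo2, a receptor for Slit guidance cues, had WT folds of 5.09, 6.10, 5.09, 9.44, 6.37 and 11.1 and KO folds of 6.11, 6.45, 10.1, 12.1, 6.43 and 15.5, with the third and the sixth called higher. Dusp10, which is not one of these 8, had 3 of 5 called higher and the highest gene median, 0.59, while its strongest peak, at 14.7 in WT and 11.1 in KO, lay below the centre at -0.21. The other direction was seen at Arhgef3, a guanine nucleotide exchange factor, with 6.06, 11.9, 9.61, 18.8, 8.65 and 10.1 in WT and 4.83, 7.67, 7.58, 13.7, 5.04 and 6.60 in KO. None of the Arhgef3 peaks passed 1.5-fold singly. Ston2, an endocytic adaptor, had all 5 below the centre, with a median of -0.40, and none was called. Peaks in a gene share their libraries and are not replicates of a genotype.

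**Figure D4:**
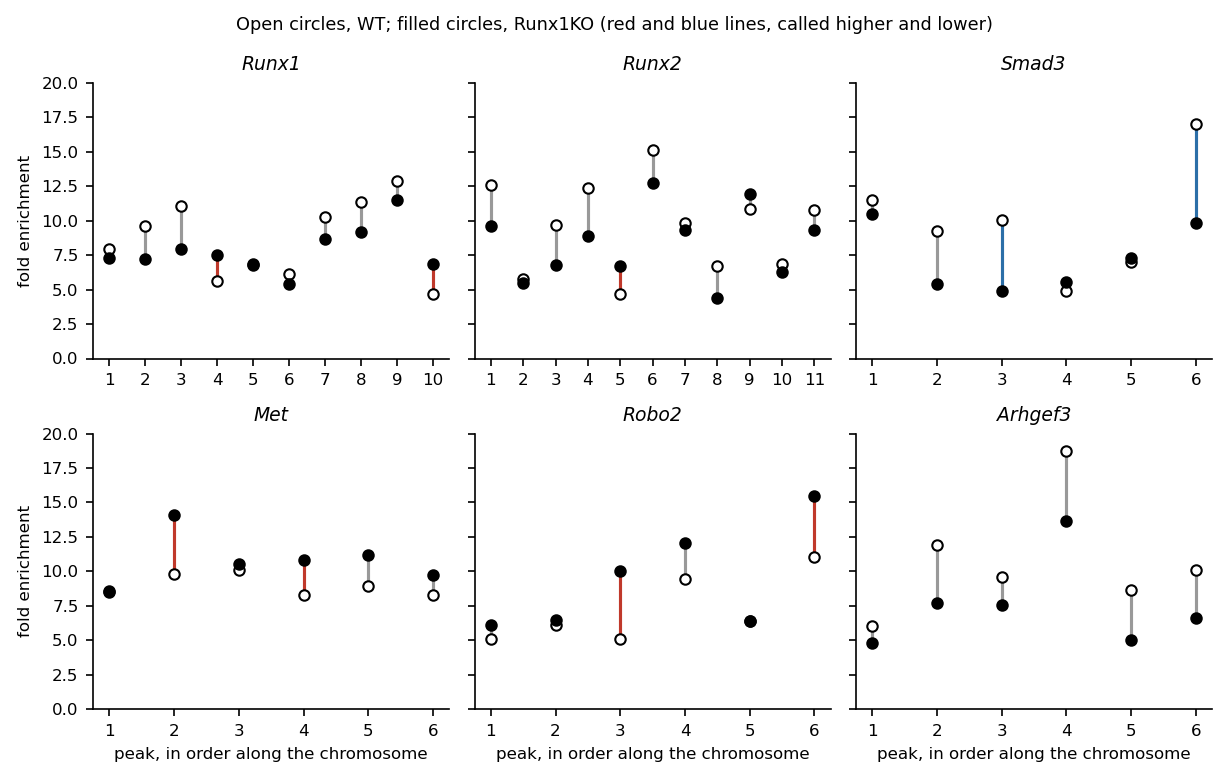
Fold enrichment (y axis) of each single-partner shared peak in 6 genes, in order along the chromosome (x axis), with open circles for WT, filled circles for Runx1KO and red or blue lines for peaks called higher or lower in KO. All KO values lie above WT at Met and Robo2 and all below at Arhgef3, while Runx1, Runx2 and Smad3 are mixed.

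The share of WT gene-body peaks that were also KO peaks varied between genes. Over the 162 protein-coding genes with 10 or more WT gene-body peaks the median was 72.7%. Efna5, a membrane-bound ephrin, and Fggy each had 3 of 10 shared (30%), Plcb1, a phospholipase C, 4 of 13, Mbp 4 of 12, Arhgap26 5 of 14 and Dst, a giant plakin, 8 of 20. At Dclk1, a microtubule-binding kinase, Nedd4l, a ubiquitin ligase, and Phldb2 all 11 of 11 were shared, and at Sorcs2 all 10 of 10. Both rankings are of values seen beforehand and carry no test. Full sharing did not mean like enrichment: at Sorcs2, 4 of the 10 were called lower and 1 higher, and at Dclk1 10 of 11 lay below the centre.

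Gene lists of muscle and signalling pathways held members more often than protein-coding genes as a whole, of which 20.3% had a member, with 0.854 per 100 kb of gene. Of the 21631 protein-coding genes, 19190 were over 2 kb and so long enough to hold a member. Gene length differs between the lists and was not matched, and long genes had a member more often. The plot of the lists gives the number per 100 kb for each. For guidance cues and the dystrophin complex that number was below the one over all protein-coding genes. The lists were chosen with earlier results of these data known. The counts of calls in the lists are of a few peaks each, and are to be read beside the 4.73% lower and 6.66% higher over all members. These shares were not matched for peak strength, on which calls depend. Of the members, 11.2% were called higher in the lowest class of fold and 1.12% in the highest. The median WT fold of the pathway lists ran from 7.85 in guidance cues to 11.1 in myogenic regulators. Among transcription factors, the AP-1 list had a member in 7 of 14 genes and 3.49 per 100 kb, 11 of the 19 in Bach2, a repressor that pairs with small Maf proteins. Bach2 had 11 of its 12 WT gene-body peaks shared, with 2 called higher, a Mafk peak was called higher, and single peaks of Bach1 and Batf3 were called lower. The ETS list had a member in 8 of 16 genes, led by Ets1 and Etv6 with 5 each. Of its 19 members 3 were called higher and none lower: 2 weak Ets1 peaks, of 6.96 and 5.15 in WT and 9.24 and 8.79 in KO, and an Etv1 peak of 6.73 and 12.8.

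TEAD and Hippo genes had a member in 11 of 16, with 2.21 per 100 kb. Tead1, the DNA-binding partner of Yap1, had all 6 of its WT gene-body peaks shared, at WT folds of 16.3, 16.4, 10.7, 10.98, 12.8 and 8.49 and KO folds of 12.1, 13.3, 7.90, 9.70, 11.2 and 4.53, and the sixth was called lower. Myogenic regulators had a member in 12 of 24, with 1.17 per 100 kb, led by Hdac4 with 9 and Eya4, a phosphatase and transcriptional cofactor, with 8. In this list 3 were called lower, at Eya4, Hdac4 and Six4, and 3 higher, at Eya4, Mef2a and Mef2c, so Eya4 had both. NFI and FOX factors had a member in 8 of 14, 43 members in all, of which 2 were called higher, a Foxp1 peak (8.44 in WT and 12.3 in KO) and a Nfia peak (10.4 and 15.9), and none lower.

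Structural genes of muscle came next. Sarcomere and calcium-handling genes had a member in 17 of 29, with 1.46 per 100 kb. Of 44 single-partner members 1 (2.27%), at the tropomyosin gene Tpm4, was called higher and none lower. The dystrophin complex had a member in 10 of 16 but only 0.517 per 100 kb, below the value over all protein-coding genes. Utrn, the paralogue of dystrophin, had 5, at 18.9, 18.8, 8.08, 14.6 and 9.40 in WT and 16.3, 17.9, 12.3, 12.4 and 6.53 in KO, with the third called higher.

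Adhesion and cytoskeletal lists had a member in most of their genes. Plakins and linkers had a member in 16 of 20, 85 members and 2.08 per 100 kb, with 4 called lower, 3 of them in Nav2, and 2 higher. Integrins, laminins and collagens had a member in 18 of 31, 72 members, led by Col4a2 (10) and Itgb5 (9), with 2 lower and 3 higher. Fusion and cell adhesion genes had a member in 17 of 23, with 2 of 55 single-partner members called lower (3.64%), both in Cdh13, and 7 higher (12.7%). Cdh13, a cadherin without a transmembrane segment, also had 2 of the higher calls.

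Guidance cues and their receptors had a member in 23 of 24 genes, but in long genes, at 0.808 per 100 kb. The median centred ratio of their 60 single-partner members was 0.20, the highest of the lists described, beside 0.00 over all protein-coding genes. Of these 60, 8 (13.3%) were called higher, 2 each at Robo2 and Sema3c and 1 each at Robo1, Plxna4, Sema6d and Slit2. Another 4 (6.67%) were called lower, at Plxnd1, Sema3a, Slit2 and Unc5c. The called-higher peaks were weak in WT except for 1 in Robo2, the Robo1 peak for example reading 5.73 in WT and 11.6 in KO. Unc5b, a netrin receptor, went the other way with 4 of 5 below the centre and none called. Receptor tyrosine kinases and the IGF axis had a member in 15 of 25, with 6 of 35 called higher, at Fgfr2, Igf1, Igf1r, Insr and 2 at Met, and 3 lower, at Ddr2, Egfr and Ephb2.

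The remaining pathways had calls in both directions. TGF-beta and BMP genes had a member in 15 of 27, led by Ltbp1 with 11, and of 47 members 3 were called lower, 2 of them in Smad3, and 4 higher. Wnt genes had a member in 14 of 24, with 4 of 32 called lower, at Lrp5, Ror1, Tcf7 and Tcf7l1, and 2 higher, at Ror1 and Ryk. Notch genes had a member in 7 of 18, 23 of the 37 in the coactivators Maml3 (13) and Maml2 (10). Of 31 single-partner members 1 was called lower, at Notch2, and 1 higher, at Maml2. Cell cycle genes had a member in 8 of 24, mostly in the long genes Rad51b (8) and Cdk14 (7), and of 26 single-partner members 2 were called lower, both in Cdk14, and 2 higher, at Mad1l1 and Rad51b. None of these counts was tested.

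**Figure D5:**
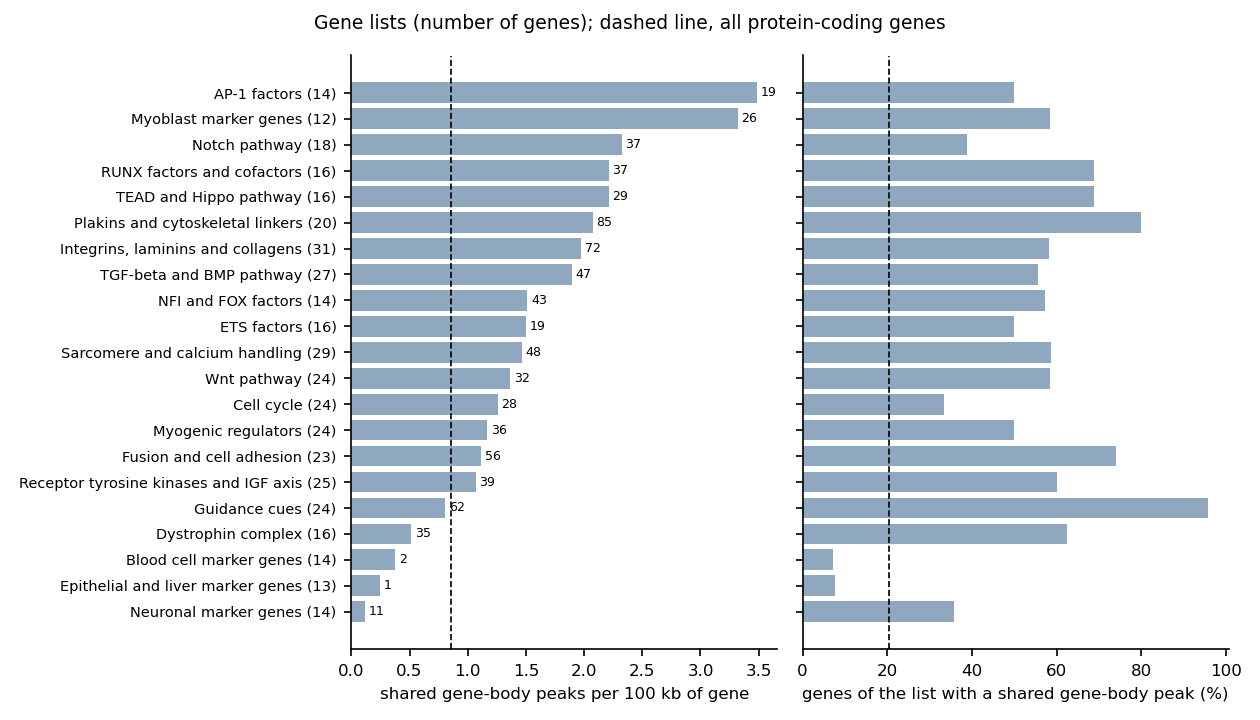
Shared gene-body peaks per 100 kb of gene (left, with the number of peaks beside each bar) and the percentage of genes with at least 1 (right) for the gene lists described, with the number of genes in brackets and dashed lines for all protein-coding genes (0.854 per 100 kb and 20.3%). AP-1 and myoblast marker genes lead by density, guidance cues by share of genes, and the markers of blood, epithelial and neuronal cells stand lowest by density.

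The markers of other cell types had few members. Of 14 blood markers only Tcf7 had any (2), 1 of them called lower, with 10.8 in WT and 5.05 in KO. Of 13 epithelial and liver markers only Grhl2 had 1. Neuronal markers had 11 members in 5 of 14 genes, at 0.116 per 100 kb, 5 of them in Dlg2. Myoblast markers had 26 members in 7 of 12 genes, at 3.32 per 100 kb: Megf10 7, Met and Ncam1 6 each, Cdh15, Vcam1 and Sdc4 2 each, and Itga7 1. With 10 kb either side of each gene, any WT peak was found at 11 of 12 myoblast, 4 of 14 blood, 7 of 13 epithelial and liver and 8 of 14 neuronal markers, and any KO peak at 10, 3, 6 and 7 of them. Myf5 had no peak in either library and Pax7 had 1 in WT and none in KO, while Myod1 had 2 in each, outside the gene-body class. Megf10, which encodes a receptor of satellite cells, had WT folds of 15.7, 7.89, 14.3, 5.69, 15.0, 10.3 and 8.91 and KO folds of 11.05, 7.45, 9.41, 6.06, 9.86, 6.13 and 7.85, and Ncam1, the neural cell adhesion molecule, had all 6 within 0.10 of the centre on the log2 scale.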

How the data were processed

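Chromatin accessibility was measured by ATAC-seq; nuclei were lysed with NP-40 and tagmented with Tn5, per the labels' protocols, and the build is mm10, per the submitters' processing notes. The aligner, peak caller, Tn5 offset and filters are not given in the sources used here. The authors deposited peak lists that hold, for each peak of replicate 1, a fold enrichment over background (a ratio), a −log10 q and a summit offset. The deposited values were used as they stand. The lists carry no read counts, so depth is unknown and no count test was possible.

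Peaks were placed with the RefSeq GRCm38 table (49554 genes on chromosomes 1 to 19 and X; it gives no exons or introns, so these were not assigned), which matches the build by name. Overlap was at least 1 bp. Checks with bedtools 2.31.1 gave KO partners for all 24800 shared peaks. The functions passed 7 of 7 checks on simulated peaks. The tools were scipy 1.17.1, pandas 2.3.3 and numpy 2.4.6 under Python 3.11.15. No test was made between genotypes: called lower or higher means more than 1.5-fold from the median ratio.

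Genes named: Runx1, the 10 protein-coding genes with the most members and the 10 densest among those with 5 or more, the 10 members with the highest WT −log10 q, the 8 lowest and 8 highest ratios among strong members, and up to 4 genes a list. Those ranked by fold, by gene median or by share of peaks shared, the start windows, the genes named for calls within a list and those shown peak by peak were chosen after their values were seen. The members, the 22 gene lists and the rules were chosen with earlier results of these data known. A planned search for motifs in the peaks was not run, and the only sequences used were the RefSeq start windows. Some genes and a list that these rules take in are not reported here. Alternatives covered the point, distance, genes, overlap, strength, centre, measure and threshold.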

Additional observations from a re-analysis of the deposited data

How the results depend on the processing

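The values come from 1 library per genotype, so leaving out replicates was not possible. No paired analysis was possible because each genotype has a single library in the peak lists. Of 59 alternative values computed, 33 stayed within 1.5 times the reported count or within the 95% interval of the reported value, and 26 moved. That interval takes the peaks of 1 library per genotype as separate draws and holds no replicate error. The number of shared gene-body peaks moved to 4538 when both −log10 q had to reach the median of their list. The median WT fold was 10.1 beyond 5 kb from gene ends, 10.2 with a reciprocal overlap of 50%, 12.97 with both −log10 q at or above the list medians and 11.3 with both at least 10. The median width was 397.5 bp with protein-coding genes only and 401 bp, 463 bp and 424 bp under those last 3 settings. The members called lower and higher were 1269 and 250 without centring, 1708 and 1847 by the ratio of −log10 q, 971 and 1153 by the ratio of widths and 53 and 72 at a 2-fold threshold. They were 53 and 57 with both −log10 q at or above the list medians, 52 and 58 when those peaks were also used for the centre (an alternative chosen after seeing the data) and 177 and 229 with both at least 10 (likewise added). The settings on −log10 q keep fewer peaks by construction; otherwise the cause was not tested. The rank correlation of WT and KO fold was 0.715 beyond 5 kb and 0.707 with both −log10 q at least 10, where the median Jaccard index was 0.802; for these measures the alternatives were also chosen after seeing the data, as was leaving out chromosome 8 from 75 to 95 Mb, which left 464 members called lower and 659 higher. The number of protein-coding genes with a member was 3155 to 4241 under its alternatives.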
